A study of Arabidopsis thaliana with 27 samples.

Results

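The genes described here are those that the chloroplast genome of Arabidopsis thaliana carries itself. They were taken as every row of the expression table with an identifier beginning ATCG and a mean of at least 1 TPM (a read count scaled by gene length and by library size) over all samples. All 133 such rows reached that mean, of 33602 rows in the table and 18910 that were tested. They comprise 86 protein-coding rows, 8 ribosomal RNA rows, 37 transfer RNA rows and 2 rows that the reference does not annotate. The plastid genome holds a large inverted repeat, so that 18 genes are present as a pair of rows with nearly equal values, and 115 rows are distinct.

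All plants were wild type Col-0. They grew for 7 days on complete agar medium (+Fe+P, the control) under continuous light, and were then moved to fresh control medium, to medium with the iron salt left out (−Fe+P), or to medium without the iron salt and with a low phosphate supply (−Fe−P). Shoots were taken 39, 52 and 76 h after the move, with 3 samples in each of the 9 groups and 27 in all. No group received low phosphate with iron, so −Fe−P compared with −Fe+P gives the difference that low phosphate made in plants without iron. The paper describes the 3 samples of a group as biological replicates. The number of plants in a sample, and whether the 3 samples came from separate plates, are not given in the sources used here. The p-values therefore measure the spread between these samples, which may be partly technical.

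The plastid genome descends from that of a cyanobacterium. It encodes core subunits of photosystem I and II, the cytochrome b6f complex, the ATP synthase and the NDH complex, the large subunit of Rubisco, part of the plastid ribosome, and the core of a bacterial-type RNA polymerase, while the nucleus encodes the remaining subunits. The bacterial-type polymerase (PEP, genes rpoA, rpoB, rpoC1 and rpoC2) needs sigma factors from the nucleus, and a phage-type polymerase (NEP), itself a nuclear product, transcribes a second set of genes. Most plastid genes are read as long transcripts over several neighbours, which are then cut, spliced and edited, and in plastids an added poly(A) tail marks RNA for decay. The libraries were made from RNA caught on oligo-dT beads, so the values are those of plastid RNA that was retained on such beads, and differences between genes in level need not follow their total RNA.

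How TPM was computed and whether reads were counted by strand are not stated in the sources used here. Reads of a gene, of an overlapping or antisense neighbour, and of an unspliced or uncut precursor therefore cannot be told apart. Since shoots were measured in bulk, fewer plastids or fewer green cells and less RNA per plastid cannot be told apart either.

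The samples carried the markers of green shoot tissue. RBCS1A, the Rubisco small subunit, was between 21118 and 29540 TPM and RCA, Rubisco activase, between 4534 and 10059 TPM, whereas 7 root markers summed to 1.92 to 42 TPM. The root sum was highest in −Fe−P 76 h replicate 2, where IRT1, the root iron transporter, and FRO2 stood at 16.8 and 16.5 TPM. It was 1.92 to 13.5 TPM in the control samples and 4.24 to 42 TPM in those without iron. The sum thus differed with the medium, and whether it reflects root tissue was not tested. IRT1 and EXPA7, a root hair expansin, were each at 0 in 1 sample. Depth, inferred from the steps between TPM values, was 25.6 to 56.5 megareads per sample, and 119 of the 133 members had at least 30 reads in every sample, with 2 reads as the lowest member value.

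A few libraries stood apart in their plastid values. In −Fe−P 39 h replicate 1, 18 of the 115 distinct members were at least 2-fold above both other samples of the group, against 1.59% of all tested genes. The same sample had a mitochondrial share of 0.501% of all TPM, where the other 26 samples lay between 0.0992% and 0.239%, and a root marker sum of 4.24 TPM against 20.5 and 22.1 TPM in its group. In replicate 2 of +Fe+P at 52 h and replicate 2 of −Fe−P at 76 h, 8 distinct members each stood that far above, and every other sample had 0 to 3. The calls and counts that change without 1 of these libraries are given with and without it. The members varied more between replicates than other genes did. Their median SD on the log2 scale within groups was 0.31, against 0.13 for all tested genes, and the median standard error of a difference was 0.23 against 0.11.

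Plastid-encoded rows took 7.85% to 14.1% of all TPM in a sample. At 76 h the share was 8.18% ± 0.405 (SD, n = 3) in the control, 10.04% ± 1.54 in −Fe+P and 10.5% ± 2.06 under −Fe−P. At 39 h the same 3 media had 10.1%, 10.6% and 11.6%. The −Fe samples at 76 h lay between 8.47% and 12.6%, and the +Fe+P samples between 7.85% and 8.63%, so that −Fe−P overlapped the control and −Fe+P, from 9.08% up, did not. Of the 76 h share, protein-coding rows held 5.95% ± 0.269 in the control, 6.51% ± 1.01 in −Fe+P and 7.90% ± 0.888 under −Fe−P. Ribosomal RNA rows held 1.46%, 2.46% and 1.72%, with −Fe−P replicates from 0.887% to 3.14%. No test is given for these sums, which are descriptions.

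**Figure D1:**
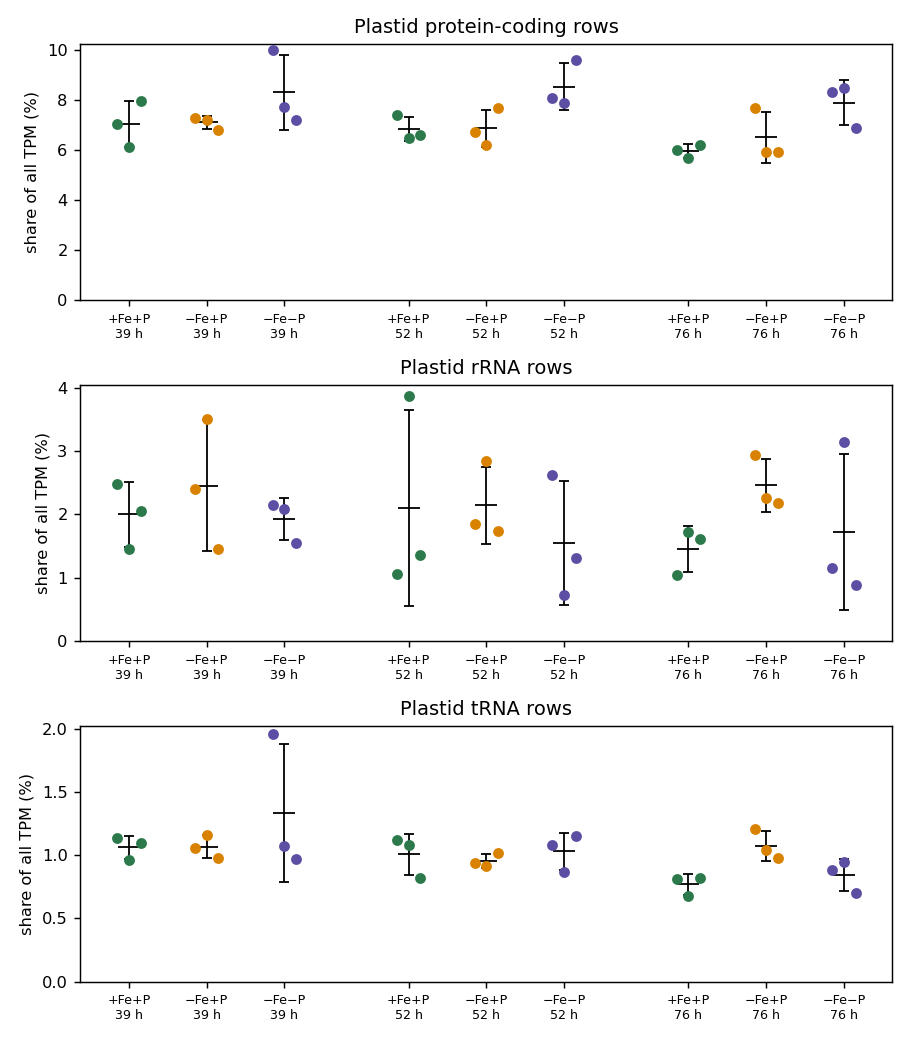
Share of all TPM, in percent, taken by plastid protein-coding, ribosomal RNA and transfer RNA rows in each of the 27 samples, grouped by medium and time. The total lay between 7.85% and 14.1%, highest in −Fe−P 39 h replicate 1, and at 76 h the +Fe+P samples had means of 5.95% for coding rows and 1.46% for ribosomal RNA.

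The protein-coding genes differed in level by up to 2258-fold, with TPM compared per length. The ATP synthase subunits atpE and atpB, read from overlapping frames of 1 transcript, averaged 10024 TPM (6537 to 16674 over the 27 samples) and 7940 TPM. They were followed by rpl32, a protein of the large ribosomal subunit, at 7485 TPM, psaJ, a small subunit of photosystem I, at 6119 TPM, and psbM, a small subunit of photosystem II, at 5857 TPM. These 5 genes made up 51.8% of plastid coding TPM. The mean was over 1000 TPM for 15 of the 80 distinct coding rows and under 100 TPM for 34, with a median of 137 TPM.

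The genes best known for abundant chloroplast messages were not at the top of these libraries. The psbA message, for the D1 reaction centre protein of photosystem II, averaged 390 TPM and rbcL, for the large subunit of Rubisco, 251 TPM. The reaction centre proteins psaA and psaB of photosystem I were at 57.8 and 81.7 TPM. At the bottom stood rpoC2, a polymerase subunit, at 17.1 TPM, accD, an acetyl-CoA carboxylase subunit, at 7.99 TPM, ycf2, an import-associated protein, at 6.37 TPM, and ccsA, a cytochrome c assembly protein, at 4.44 TPM.

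Within the groups the leading members were as follows. The genes psbM and psbD (614 TPM, the D2 protein) led photosystem II, and petN and petD led the cytochrome b6f complex at only 97.8 and 89.7 TPM. The NDH complex, which cycles electrons around photosystem I, was led by ndhK and ndhJ with 1939 and 1854 TPM. For the ribosome, rpl32 and rpl16 (2686 TPM) led the large subunit and rps12 and rps19 (1884 and 1377 TPM) the small subunit. The polymerase gene rpoA, which lies in a ribosomal protein cluster, was at 420 TPM, and rpoB was at 36.9 TPM. The photosystem I assembly genes ycf3 and ycf4 were at 48.5 and 22.5 TPM. Among structural RNAs, rrn23S and rrn16S were at 4748 and 4419 TPM, and the leading transfer RNA rows, trnL (ATCG00400) and a threonine row (ATCG00390), at 1956 and 1506 TPM. As shares of coding TPM over all samples, the large ribosomal subunit had 27.3%, the ATP synthase 25.4%, the small subunit 14.9%, photosystem II 12.8%, photosystem I 8.76%, NDH 7.48%, RNA polymerase 0.693%, cytochrome b6f 0.564% and rbcL 0.358%.

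Levels were compared with simple features of sequence, as a description over the 78 coding rows with coordinates in the plastid genome of RefSeq TAIR10.1 (154478 bases, GC content 36.3%). Spearman's rho with mean TPM was 0.12 for GC content, −0.06 for the longest run of A in the gene, 0.18 for the longest run of A in the 200 bases after it and −0.24 for the span of the gene. These are weak relations, and neighbouring genes share transcripts and base composition.

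A pair of boxes of the bacterial type, TTGACA and TATAAT separated by 17 to 19 bases, was looked for in the 250 bases before each start, on the strand of the gene. At most 2 mismatches in the 12 box letters were found before 19 of 111 distinct rows (17.1%), against 7.71% of 6170 windows of the same length over both strands of the genome, and at most 1 mismatch before 3 rows, against 0.648% of windows. These windows also covered genes and were not matched for base composition, so the shares are not like for like. The rows are not all independent, since trnY and trnE have the same site at 30570 to 30599. The best matches before rrn16S and psaA are shown because the results turn on these genes, and psbA, trnK and ndhF because they had at most 1 mismatch. Capitals mark the pair of boxes, and the coordinates are those of the plastid chromosome of TAIR10.1.
psbA (1530 to 1559, minus strand, 1 mismatch, 115 bases before the start): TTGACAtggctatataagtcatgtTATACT
trnK (4458 to 4486, minus strand, 0 mismatches, 139 bases before the start): TTGACAacagtgtatggaccaaaTATAAT
ndhF (112836 to 112864, minus strand, 1 mismatch, 226 bases before the start): TTGACAgtaacttagtaatatttTTTAAT
rrn16S (100861 to 100890, plus strand, 2 mismatches, 151 bases before the start): TTGACGtgagggggtaggggtagcTATATT
psaA (42011 to 42039, minus strand, 3 mismatches, 182 bases before the start): TTGCCCcagatcgacttccagatCATAAT
A match is a description of letters, not of a site in use, and 67 of the 111 rows had a match with at most 3 mismatches.

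The first question was how plastid messages differed when iron was left out with phosphate sufficient. A member was called when limma's test, with Benjamini-Hochberg adjustment over all 18910 genes, gave an adjusted p under 0.05 and the change was at least 2-fold, and members that passed the adjusted p alone were counted beside it. At 39 h no member of 133 was called in either direction, against 0.994% of all tested genes, and none passed the adjusted p alone, against 5.88%. At an unadjusted p under 0.05, 1 member was higher and 5 were lower. Here and below, counts at an unadjusted p were made for the members only. They have no share over all genes beside them and cannot show a departure from it.

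At 52 h 1 member was higher by at least 2-fold, against 2.78% of all tested genes, and 11 (8.27%) were higher at the adjusted p alone, against 28.5%. Among them were trnQ, rpoA, rps12, rpl36 and 5 NDH genes, ndhA, ndhD, ndhG, ndhH and ndhI. The glutamine transfer RNA trnQ is a low row of 3.83 TPM on average, with 3 to 19 reads in a sample. It had 2.87, 4.03 and 1.99 TPM in the control, and 7.76, 5.50 and 5.66 TPM in −Fe+P, with no overlap. Its log2 difference of 1.003 (adjusted p = 0.032) no longer met the call with a pseudocount of 1, with no filter on low values, with median-of-ratios scaling, or without replicate 1 or 3 of either medium, with log2 values from 0.79 to 1.22 over its alternatives. Without +Fe+P 52 h replicate 2, which stood apart, 3 members were called, against 2.55% of all genes in that fit. At the adjusted p alone 13 were then higher, against 16.4% of all genes.

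At 76 h the median log2 difference of the members was 0.45, against 0.12 over all tested genes, and 123 of 133 were above 0. From 39 to 76 h the member median was −0.45 within the control and 0.06 within −Fe+P. The 76 h differences thus include a fall in the control. The median of all genes came to 0.00 under median-of-ratios scaling and that of the members to 0.32. Called higher were 6 members (4.51%), which are 5 of the 115 distinct rows, against 4.42% of all tested genes. At the adjusted p alone 41 (30.8%), 37 of the distinct rows, were higher, against 29.5%. The shares higher were thus near the background, while no member was lower at the adjusted p, against 9.43% of all tested genes.

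The 6 rows called at 76 h were psaA, psaB, rps14, trnD and both copies of rrn4.5S. The first 3 lie side by side on the minus strand, in the order psaA, psaB, rps14, from 41857 down to 36938. The genes psaA and psaB encode the reaction centre proteins that bind the electron transfer chain of photosystem I, including an iron-sulfur cluster between them, and rps14 encodes a protein of the small ribosomal subunit. The stretch between psaA and psaB is shown because the genes are so close that 1 message can carry both. Capitals mark the stop codon of psaA and the start codon of psaB, with 25 bases between them, at 39577 to 39607 on the minus strand of the plastid chromosome.
psaA-psaB spacer: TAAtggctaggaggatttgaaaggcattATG

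For psaB the 76 h samples had 39.0, 45.5 and 49.9 TPM in the control, 117, 109 and 104 TPM in −Fe+P, and 79.6, 152 and 71.4 TPM under −Fe−P. Both groups without iron lay above the control with no overlap. In −Fe+P the log2 difference was 1.29 (SE 0.33, adjusted p = 0.00394, limma), and it met the call under all 15 alternatives, with values from 1.17 to 1.37. For psaA the samples had 27.9, 35.7 and 36.6 TPM in the control, 79.3, 68.1 and 74.0 TPM in −Fe+P, and 49.2, 103 and 47.1 TPM under −Fe−P. Its log2 difference in −Fe+P was 1.14 (adjusted p = 0.014), and without +Fe+P 76 h replicate 1 it was 1.02 (adjusted p = 0.0552). The groups again did not overlap.

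For rps14 the 76 h samples had 127, 127 and 166 TPM in the control, 466, 268 and 252 TPM in −Fe+P, and 284, 421 and 230 TPM under −Fe−P. Its log2 difference in −Fe+P was 1.18 (adjusted p = 0.0412), close to the threshold, and the call was lost under 7 of 15 alternatives, among them leaving out any single sample except −Fe+P replicate 3. Over all 15 alternatives the log2 value was 0.90 to 1.34, the lowest without −Fe+P replicate 1 (adjusted p = 0.167). Over the 27 samples psaA and psaB followed each other with r = 0.99, and rps14 followed psaB with r = 0.64. These correlations are descriptions over samples that share media and times.

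**Figure D2:**
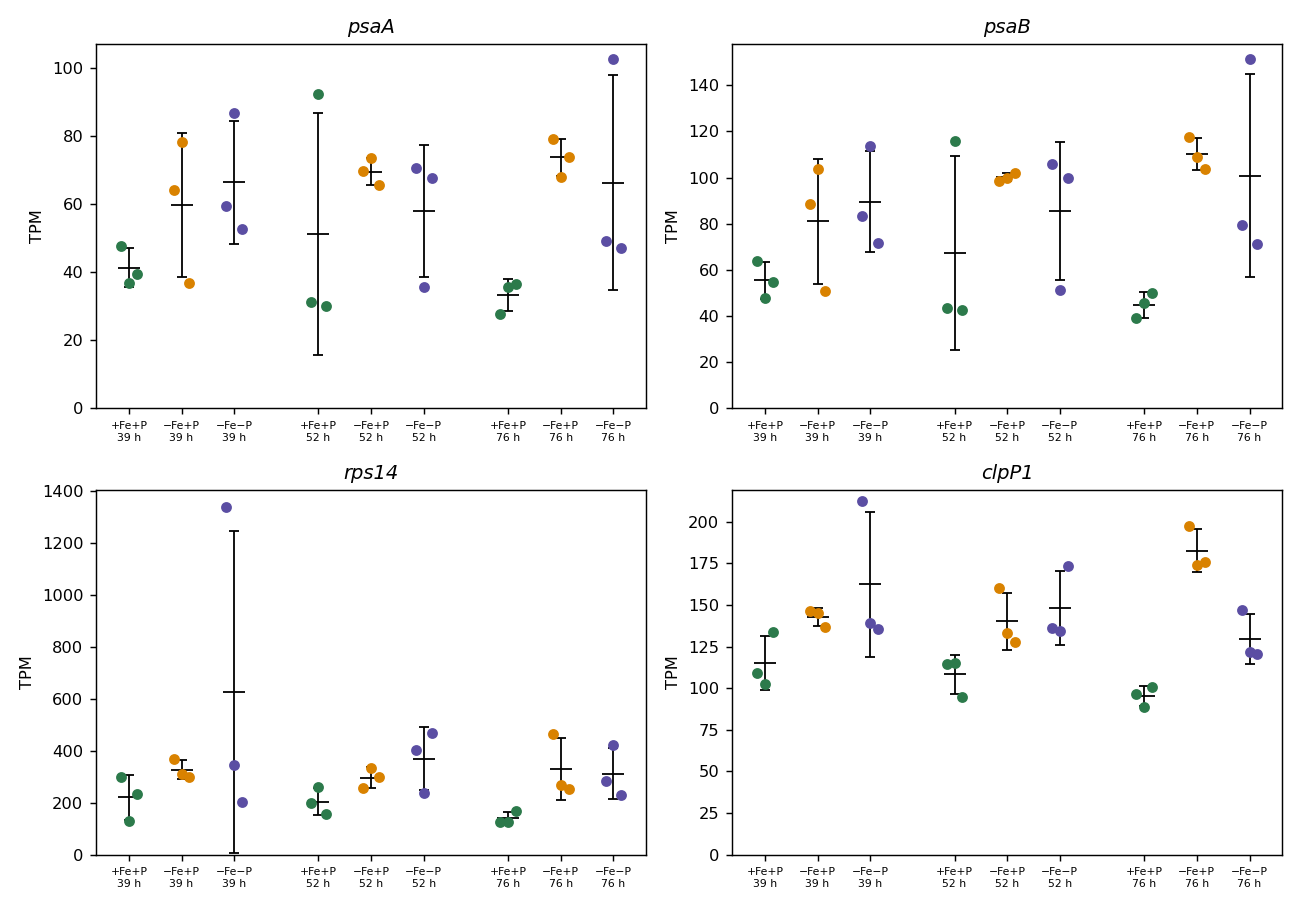
Abundance in TPM of psaA, psaB, rps14 and clpP1 in each sample (points), with the mean and SD of each group of 3, by time and medium. At 76 h the −Fe+P samples of psaB (104 to 117 TPM) lay above those of +Fe+P (39.0 to 49.9 TPM), and +Fe+P 52 h replicate 2 stood at 116 TPM.

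At the earlier times the same genes did not pass. For psaB at 39 h the samples had 63.9, 47.8 and 54.7 TPM in the control and 88.4, 104 and 50.9 TPM in −Fe+P, which overlap (log2 0.49, adjusted p = 0.44). At 52 h they had 43.5, 116 and 42.6 TPM in the control and 98.7, 99.9 and 102 TPM in −Fe+P, where only +Fe+P replicate 2, a library that stood apart, reached the −Fe+P range. The change of the psaB response from 39 to 76 h, tested as a contrast of the same fit, was 0.80 on the log2 scale with an adjusted p of 0.359.

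The other members of photosystem I did not all follow. In −Fe+P at 76 h psaC, the subunit that holds the terminal iron-sulfur clusters, was above the control by a log2 value of 0.64 (adjusted p = 0.0353). Its means at 39 and 76 h were 44.8 and 29.7 TPM in the control, and 38.4 and 46.6 TPM in −Fe+P. The gene psaI differed by 0.38 (adjusted p = 0.449) and psaJ by −0.00 (adjusted p = 0.991). The psaC difference passed under 8 of 15 alternatives. It was lost under median-of-ratios scaling and without control replicate 2 or 3 or any −Fe+P replicate, with a highest adjusted p of 0.122. Samples of psaJ had 5271, 4916 and 5618 TPM in the control and 7269, 4841 and 4100 TPM in −Fe+P, with overlap. The median over the 5 members was 0.64, and 3 of 5 passed the adjusted p.

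Photosystem II had a median log2 difference of 0.15 in −Fe+P at 76 h, and 1 of its 15 members passed the adjusted p. Under median-of-ratios scaling this median was 0.02. Its best known member, psbA, had 202, 365 and 319 TPM in the control and 736, 485 and 457 TPM in −Fe+P. The samples did not overlap, yet the difference of 0.93 had an adjusted p of 0.137. At 52 h the control samples of psbA alone ranged from 177 to 652 TPM. The Rubisco gene rbcL had 150, 268 and 239 TPM against 343, 263 and 332 TPM (log2 0.55, adjusted p = 0.319). The medians of the cytochrome b6f, ATP synthase and NDH groups were 0.42, 0.37 and 0.42, with 3 of 6, 1 of 6 and 6 of 11 distinct members higher at the adjusted p.

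Ribosomal and polymerase genes were counted in the same way. In the small subunit 6 of 13 distinct members were higher at the adjusted p with a median of 0.46, and in the large subunit 2 of 9 with a median of 0.28. Of the polymerase genes, rpoA had 330, 265 and 316 TPM in the control and 470, 430 and 440 TPM in −Fe+P (log2 0.56, adjusted p = 0.00629, and 0.0549 under median-of-ratios scaling), whereas rpoB, rpoC1 and rpoC2, which share another transcript, differed by 0.31, 0.41 and 0.44 with adjusted p of 0.305, 0.144 and 0.243. At 39 h the means of rpoA were 408 TPM in the control and 428 TPM in −Fe+P. The plastid protease subunit clpP1 gave the steadiest difference. Its samples had 96.5, 88.6 and 101 TPM in the control and 198, 174 and 176 TPM in −Fe+P, and the log2 difference of 0.93 (SE 0.14, adjusted p = 2.34e-05) passed the adjusted p under all 15 alternatives while staying under 2-fold. The phenylalanine transfer RNA trnF was higher by 0.97 (adjusted p = 0.000123), with 18.8, 21.3 and 18.7 TPM in the control and 40.6, 30.2 and 47.7 TPM in −Fe+P. The aspartate transfer RNA trnD was called at 1.54 with an adjusted p of 0.0498, and this call was lost under 10 of its 14 alternatives, among them without control replicate 1 or 2 or any −Fe+P replicate at 76 h, over which its log2 value ranged from 1.21 to 2.16.

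**Figure D3:**
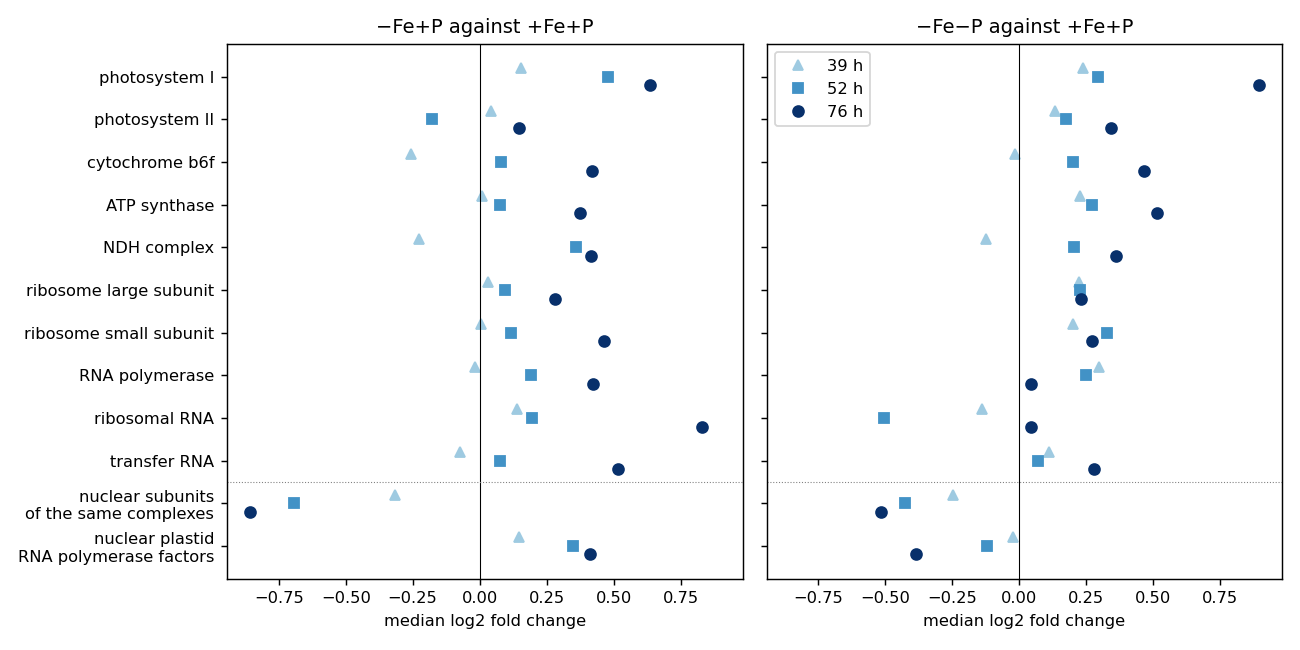
Median log2 difference of each functional group of plastid genes and of 2 lists of nuclear genes, for each deficient medium against the control at 39, 52 and 76 h. At 76 h in −Fe+P every plastid group shown had a median above 0, from 0.15 for photosystem II to 0.83 for ribosomal RNA, while the nuclear subunits of the same complexes had −0.86.

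When both iron and phosphate were short, the comparison with +Fe+P at 39 h called 2 members higher (1.5%), against 1.45% of all tested genes, and 9 (6.77%) were higher at the adjusted p alone, against 10.8%. The pair called were neighbours, atpI, a membrane subunit of the ATP synthase, and rps2, a small subunit ribosomal protein. For atpI the samples had 208, 174 and 267 TPM in the control and 1723, 345 and 308 TPM under −Fe−P. Replicate 1 of −Fe−P, the library that stood apart, was far above its mates. The log2 difference of atpI was 1.41 (adjusted p = 0.016) with that library and 0.61 (adjusted p = 0.062) without it, and rps2 had 1.10 with it and 0.50 (adjusted p = 0.127) without it. Without that library 0 members were called, so the 39 h calls rested on it. At the adjusted p alone 4 were then higher, against 12% of all genes in that fit. Leaving out +Fe+P 39 h replicate 2 also ended both calls, and leaving out +Fe+P 39 h replicate 1 ended that of rps2.

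At 52 h no member was called in either direction, against 5.25% of all tested genes. At an unadjusted p under 0.05, counted for the members only, 21 were higher and 4 were lower. At the adjusted p alone 11 members (8.27%) were higher, against 28.8%, and 4 (3.01%) were lower, against 11.6%. Without +Fe+P 52 h replicate 2 these counts were 14 and 0, against 21.2% and 11.6% of all genes in that fit. The 4 lower rows were both copies of trnI-GAU and trnA-UGC, the transfer RNAs that lie between the ribosomal RNA genes, which are described with the −Fe−P and −Fe+P comparison. Among those higher were atpB (log2 0.49), rpoA (0.44), clpP1 (0.45) and both copies of rps7 (0.49).

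At 76 h the median log2 difference of the members was 0.28, against 0.10 over all tested genes, and 106 of 133 were above 0. Median-of-ratios scaling gave 0.15 for the members and −0.02 for all genes, and it lowered the share of higher genes among all called from 70.9% to 58.3%. Called higher were 3 members (2.26%), against 6.34% of all tested genes. At the adjusted p alone 35 members (26.3%) were higher, against 33.7%, and 4 (3.01%) were lower, against 21.9%. Without −Fe−P 76 h replicate 2 these 35 and 4 became 16 and 5, against 32.5% and 19.4% of all genes in that fit. There 1 member was called higher, against 6.76% of all genes. The member median was then 0.195, against 0.118 over all genes.

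The 3 called were psaB, rps14 and trnQ. The psaB difference was 1.09 (SE 0.33, adjusted p = 0.00868), and it fell to 0.75 (adjusted p = 0.0748) without −Fe−P 76 h replicate 2, the highest sample at 152 TPM, and to 0.99 (adjusted p = 0.0356), just under 2-fold, without +Fe+P 76 h replicate 1. Median-of-ratios scaling also took it under 2-fold. The rps14 difference was 1.12 (adjusted p = 0.0391). Its call was lost under median-of-ratios scaling and without replicate 1 or 2 of either medium at 76 h, with a lowest log2 value of 0.88. For psaA and psaI the differences were 0.89 (adjusted p = 0.0369) and 0.98 (adjusted p = 0.031). Each passed under 9 of 15 alternatives. Both were lost under median-of-ratios scaling and without control replicate 1 or 2 or −Fe−P replicate 2, and psaA also without control replicate 3. Values went down to 0.53 for psaA and 0.46 for psaI. The row trnQ had 1.19, 1.69 and 2.20 TPM in the control and 3.29, 6.86 and 7.25 TPM under −Fe−P, with no overlap (log2 1.48, adjusted p = 0.00109), and met the call under all 14 of its alternatives.

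By group, the medians under −Fe−P at 76 h were 0.90 for photosystem I (3 of 5 higher at the adjusted p), 0.34 for photosystem II (2 of 15), 0.47 for cytochrome b6f (2 of 6), 0.51 for the ATP synthase (2 of 6) and 0.36 for NDH (5 of 11). The 3 of photosystem I were psaB, psaA and psaI, and none of them passed without −Fe−P replicate 2, which stood apart. The group medians were not computed without that library. The large and small ribosomal subunits had 0.23 (1 of 9) and 0.27 (4 of 13). The polymerase group had 0.04 and the ribosomal RNA 0.04, and both fell to −0.08 and −0.09 under median-of-ratios scaling. Here too rpoA was the polymerase gene that passed, with a log2 difference of 0.42 (adjusted p = 0.0242), and rpoB, rpoC1 and rpoC2 differed by −0.09, −0.03 and 0.12. The rpoA difference did not pass without control replicate 2, without replicate 1 or 2 of −Fe−P, or under median-of-ratios scaling, with adjusted p up to 0.159. The protease gene clpP1 had 147, 122 and 120 TPM (log2 0.44, adjusted p = 0.0129), above all control samples and below all −Fe+P samples. The difference from the control did not pass without control replicate 2 or −Fe−P replicate 1, or under median-of-ratios scaling, with adjusted p up to 0.118. The carboxylase gene accD had 5.22, 5.53 and 5.58 TPM in the control, 8.64, 7.55 and 7.04 TPM in −Fe+P and 8.28, 11.4 and 8.19 TPM under −Fe−P. Its log2 differences from +Fe+P were 0.47 (adjusted p = 0.0469) and 0.71 (adjusted p = 0.00239). The first was lost on leaving out any of the 6 samples and under median-of-ratios scaling, with adjusted p up to 0.201. The second passed under all 15 alternatives.

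The comparison of −Fe−P with −Fe+P asks what low phosphate changed in plants without iron. At 39 h no member was called, against 0.82% of all tested genes, and none passed the adjusted p, against 4.94%. At an unadjusted p under 0.05, counted for the members only, 14 were higher and 0 lower. At 52 h no member was called either, against 2.21%, with 17 higher and 4 lower at an unadjusted p under 0.05. At the adjusted p alone 7 members (5.26%) were higher, against 9.77%, namely ndhC, ndhJ, ndhK, psbD, cemA and both copies of rps7. The cemA product is an envelope membrane protein.

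At 76 h 6 members (4.51%), which are 3 of the 115 distinct rows, were called lower, against 4.87% of all tested genes. At the adjusted p alone 7 members (5.26%) were higher, against 22.5%, and 15 (11.3%) were lower, against 28.8%. Without −Fe−P 76 h replicate 2, which stood apart, 14 members (10.5%) were called lower, against 4.49% of all genes in that fit. At the adjusted p alone 6 were then higher and 22 lower, against 20.5% and 24.5% of all genes. The median log2 difference of the members was −0.19 with it and −0.30 without it. The 6 rows called were both copies of 3 genes that lie in the ribosomal RNA cluster of the inverted repeat, in the order rrn16S, trnI-GAU, trnA-UGC, rrn23S, rrn4.5S, rrn5S. The cluster is read as 1 long precursor, from which the ribosomal and transfer RNAs are cut, and both transfer RNA genes hold a long intron.

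The 3 genes are shown as their mature sequences from the RefSeq TAIR10.1 plastid genome, with the exons joined, since reads were counted over the exons only. Capitals mark the anticodon of the transfer RNAs. The gene of trnI-GAU spans 102801 to 103601 with an intron of 729 bases, that of trnA-UGC 103665 to 104538 with an intron of 801 bases, and that of rrn4.5S 107599 to 107701, all on the plus strand of the first repeat copy. The lengths are 72, 73 and 103 bases.
trnI-GAU: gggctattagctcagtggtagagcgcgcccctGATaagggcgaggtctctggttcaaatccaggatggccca
trnA-UGC: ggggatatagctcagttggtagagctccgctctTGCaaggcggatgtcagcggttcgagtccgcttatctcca
rrn4.5S: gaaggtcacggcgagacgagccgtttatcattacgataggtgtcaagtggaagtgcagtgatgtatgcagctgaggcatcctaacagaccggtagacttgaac

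For trnA-UGC, the alanine transfer RNA, the 76 h samples had 691, 528 and 752 TPM in the control, 878, 1090 and 798 TPM in −Fe+P, and 410, 311 and 286 TPM under −Fe−P. The −Fe−P samples were below every sample of the other media at that time. The log2 difference from −Fe+P was −1.46 (SE 0.23, adjusted p = 1.56e-05) and was called under all 15 alternatives. That from +Fe+P was −0.97 (adjusted p = 0.00121), just under 2-fold. It passed the adjusted p under all 15 alternatives, with log2 values from −1.12 to −0.86, on both sides of the 2-fold limit. For trnI-GAU, the isoleucine transfer RNA, the samples had 491, 389 and 533 TPM in the control, 648, 763 and 575 TPM in −Fe+P, and 301, 257 and 248 TPM under −Fe−P, again with −Fe−P lowest. Its log2 difference from −Fe+P was −1.30 (SE 0.22, adjusted p = 2.9e-05) and was called under all 15 alternatives. That from +Fe+P was −0.80 (adjusted p = 0.00329), and it passed the adjusted p under all 15 while staying under 2-fold. The 2 rows followed each other over the 27 samples with r = 0.99. At 52 h the differences of −Fe−P from +Fe+P were −0.78 and −0.73, and both were lost without replicate 2 of either medium at 52 h.

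The 4.5S ribosomal RNA, a fragment of the large subunit RNA that is separate in plants, had 389, 403 and 477 TPM in the control, 1236, 1025 and 818 TPM in −Fe+P, and 371, 544 and 284 TPM under −Fe−P. Here −Fe+P stood above both other media, which overlapped. The log2 difference of −Fe−P from −Fe+P was −1.39 (SE 0.40, adjusted p = 0.00597) and was called under all 15 alternatives, from −1.64 to −1.17. That of −Fe+P from +Fe+P was 1.26 (adjusted p = 0.0158), and 1.12 (adjusted p = 0.061) without −Fe+P 76 h replicate 1.

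The rows rrn16S, rrn23S and rrn5S did not pass the test. For rrn16S the samples had 2320, 3861 and 3617 TPM in the control, 6305, 4824 and 4684 TPM in −Fe+P, and 2412, 7659 and 1831 TPM under −Fe−P, the high −Fe−P sample being replicate 2. The log2 differences of −Fe+P from +Fe+P were 0.71 for rrn16S (adjusted p = 0.293), 0.76 for rrn23S (adjusted p = 0.203) and 0.90 for rrn5S (adjusted p = 0.286). Those of −Fe−P from −Fe+P were −0.69, −0.67 and −0.83 with adjusted p of 0.277, 0.237 and 0.292. Over the 27 samples trnA-UGC followed rrn23S with r = 0.48 and rrn4.5S with r = 0.69, while rrn16S followed rrn23S with r = 0.99.

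**Figure D4:**
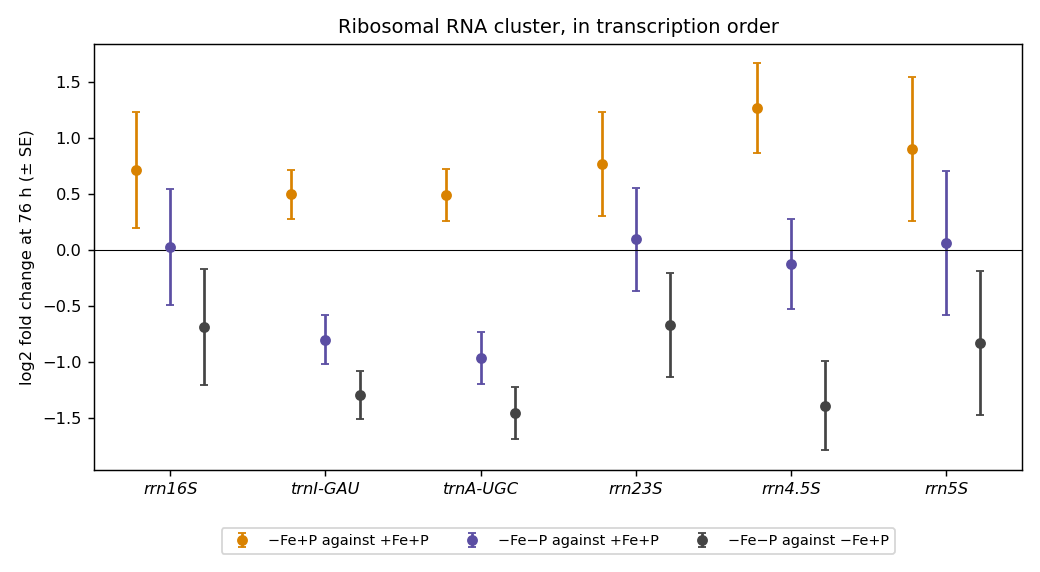
Log2 difference with its standard error at 76 h for rrn16S, trnI-GAU, trnA-UGC, rrn23S, rrn4.5S and rrn5S, in their order along the plastid ribosomal RNA cluster, for the 3 comparisons between media. The transfer RNAs of −Fe−P against +Fe+P lay at −0.80 and −0.97 while rrn16S and rrn23S lay at 0.02 and 0.09.

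Higher under −Fe−P than in −Fe+P at 76 h were 7 rows at the adjusted p, namely ndhC, ndhJ, ndhK, atpB, atpE, psbM and cemA, all under 2-fold. The genes ndhC, ndhK and ndhJ form 1 cluster of NDH genes on the minus strand. For ndhJ the samples had 1724, 1538 and 1676 TPM in the control, 1829, 1546 and 1666 TPM in −Fe+P, and 2412, 2562 and 2311 TPM under −Fe−P. The −Fe−P samples were above all others at 76 h and the other media overlapped. The log2 difference was 0.53 from −Fe+P (SE 0.09, adjusted p = 3.6e-05) and 0.56 from +Fe+P (adjusted p = 1.85e-05). For ndhK the samples had 1664, 1453 and 1641, then 1733, 1455 and 1584, then 2390, 2395 and 2248 TPM in the same order of media, with differences of 0.56 (adjusted p = 0.00216) and 0.57 (adjusted p = 0.00188). For ndhC the difference was 0.65 from −Fe+P (adjusted p = 0.00694) and 0.44 from +Fe+P (adjusted p = 0.0528). The calls at the adjusted p of ndhJ and ndhK in both comparisons, and of ndhC against −Fe+P, held under all 15 alternatives.

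The second cluster of NDH genes, which runs from ndhH to ndhD in the small single-copy region, gave other values, and the difference between the clusters was not tested. In −Fe+P against +Fe+P at 76 h ndhH, ndhA, ndhI, ndhG, ndhE and ndhD were higher by log2 values of 0.38, 0.46, 0.50, 0.62, 0.61 and 0.74, all passing the adjusted p. Of these, ndhG and ndhD passed under all 15 alternatives, while the other 4 passed under 7 to 11. Each of the 4 was lost under median-of-ratios scaling and without control replicate 2 or 3 or −Fe+P replicate 1, with adjusted p up to 0.154. Without control replicate 1 or −Fe+P replicate 2 or 3 ndhE was lost too, as was ndhI without −Fe+P replicate 2 and ndhA without −Fe+P replicate 3. For ndhH the samples had 99.3, 72.9 and 83.1 TPM in the control, 118, 106 and 108 TPM in −Fe+P, and 96.9, 83.2 and 78.4 TPM under −Fe−P. The −Fe+P samples were above all others. From 39 to 76 h the mean of ndhH went from 137 to 85.1 TPM in the control and from 124 to 110 TPM in −Fe+P. The difference of −Fe−P from −Fe+P was −0.36 for ndhH (adjusted p = 0.0197) and −0.39 for ndhA (adjusted p = 0.0499). The ndhH difference was lost on leaving out replicate 1 of −Fe+P or replicate 2 or 3 of −Fe−P (adjusted p up to 0.088), and that of ndhA held under only 5 of 15 alternatives. All of these differences were under 2-fold.

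**Figure D5:**
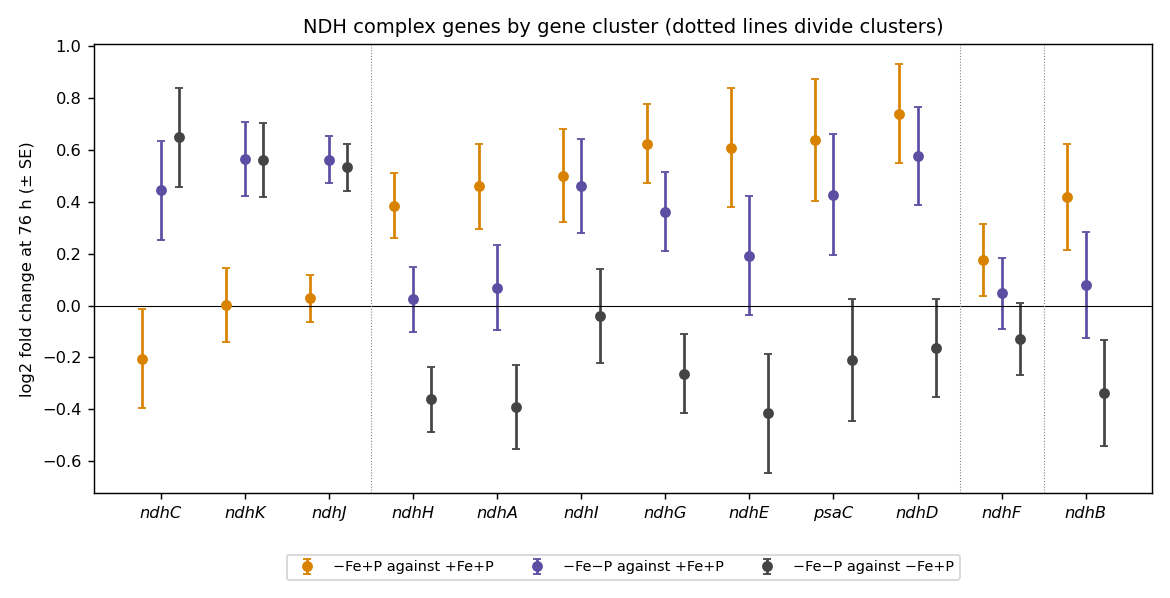
Log2 difference with its standard error at 76 h for the plastid NDH genes, arranged by gene cluster, for the 3 comparisons between media. The cluster of ndhC, ndhK and ndhJ lay at −0.21, 0.00 and 0.03 in −Fe+P against +Fe+P and at 0.65, 0.56 and 0.53 for −Fe−P against −Fe+P, and the cluster from ndhH to ndhD was above 0 in −Fe+P.

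The ATP synthase pair also stood higher with low phosphate. For atpB, the catalytic beta subunit, the 76 h samples had 7479, 6836 and 7271 TPM in the control, 8828, 6123 and 5935 TPM in −Fe+P, and 10629, 10766 and 8819 TPM under −Fe−P. The −Fe−P samples were above all of +Fe+P and overlapped the highest −Fe+P sample by a small margin. The log2 difference was 0.55 from −Fe+P (adjusted p = 0.00657) and 0.48 from +Fe+P (adjusted p = 0.0148), and for atpE 0.60 from −Fe+P (adjusted p = 0.0412). The atpB difference from the control did not pass without control replicate 2 or −Fe−P replicate 2. That of atpE did not once replicate 2 or 3 of −Fe+P or replicate 1 or 2 of −Fe−P was left out. Both also failed under median-of-ratios scaling. With no filter on low values none of the 3 passed, with adjusted p up to 0.445. The gene psbM had 3906, 6129 and 6396 TPM, then 6363, 3137 and 3770 TPM, then 8856, 7308 and 7297 TPM in the same order of media, with a difference of 0.88 from −Fe+P (adjusted p = 0.00545, and 0.055 with no filter). Also lower under −Fe−P at the adjusted p were clpP1 (−0.49, adjusted p = 0.00639) and both copies of ycf2 (−0.48).

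The change over time was followed within each medium. From 39 to 76 h in the control their median log2 difference was −0.45, against −0.09 over all tested genes, and only 3 of 133 were above 0. No member was called, against 1.91% of all tested genes, but 22 (16.5%) were lower at the adjusted p alone, against 13.4%. At an unadjusted p under 0.05, 57 were lower and 0 higher, with no share over all genes to set beside them. Among the 22 were trnY (−0.80), trnF (−0.75), rps15 (−0.74), ndhH (−0.70), rps4 (−0.66), ndhA (−0.63) and petD (−0.55).

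In −Fe+P the same interval gave a median of 0.06, against −0.01 over all genes. There 1 member was called lower, against 0.603% of all tested genes, and at the adjusted p alone 3 (2.26%) were higher, against 17.4%, and 4 (3.01%) lower, against 16.1%. The called row was atpI, which went from 329, 339 and 264 TPM to 168, 140 and 140 TPM (log2 −1.05, adjusted p = 0.0429). Its groups did not overlap, yet the call was lost on leaving out any of the 6 samples, over which its adjusted p reached 0.113. The 3 higher rows were trnF (0.53), petB (0.56) and petD (0.56), the last pair encoding cytochrome b6 and subunit IV of the cytochrome complex.

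Under −Fe−P the median was −0.30, against −0.01 over all genes (−0.15 against −0.07 without −Fe−P 39 h replicate 1). There 11 members (8.27%), which are 8 of the 115 distinct rows, were called lower, against 4.19% of all tested genes. At the adjusted p alone 6 (4.51%) were higher, against 27.8%, and 40 (30.1%) were lower, against 30.7%. The 11 were atpI, rps2, rpoB, rpl20, psbB and both copies of trnI-GAU, trnA-UGC and trnR. Without −Fe−P 39 h replicate 1, which was the high sample in most of them, 2 remained called (1.5%), both copies of trnA-UGC, against 3.78% of all genes in that fit. The counts at the adjusted p became 3 and 19, against 22.7% and 33.3% of all genes. The trnA-UGC samples went from 1086, 739 and 641 TPM at 39 h to 410, 311 and 286 TPM at 76 h, without overlap. The log2 difference was −1.27 (adjusted p = 7.27e-05), and −1.05 (adjusted p = 0.000918) without that library. The row rpoB had 83.5, 40.4 and 40.3 TPM at 39 h and 27.4, 22.3 and 23.9 TPM at 76 h (log2 −1.06). It stood at −0.71 (adjusted p = 0.00541) without that library and at −0.99, also under 2-fold, without −Fe−P 76 h replicate 2. The calls of trnI-GAU were likewise lost without −Fe−P 39 h replicate 1 or replicate 2 or 3 at 76 h, each time on the 2-fold limit. Without −Fe−P 76 h replicate 2, 11 members (8.27%) were called lower, against 4.06% of all genes in that fit. At the adjusted p alone 3 were then higher and 35 lower, against 27.2% and 27.6%. The member median was −0.38 in that fit.

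Whether the response to a medium changed between 39 and 76 h was tested directly. For −Fe+P against +Fe+P, 2 members (1.5%) rose by at least 2-fold more at 76 h, against 2.06% of all tested genes. For −Fe−P against +Fe+P 1 member (0.752%) did so, against 3.53%. For −Fe−P against −Fe+P 4 rows (3.01%) fell, against 2.51%, but they were only 2 of the 115 distinct rows. The rows were petD (log2 1.12, adjusted p = 0.0145) and trnF (1.28, adjusted p = 0.00243), then trnF (1.14, adjusted p = 0.00135), then both copies of trnA-UGC (−1.53, adjusted p = 0.00128) and trnI-GAU (−1.23, adjusted p = 0.00431). The petD samples had 101, 95.0 and 109 TPM in the control and 86.5, 90.4 and 55.6 TPM in −Fe+P at 39 h, and 76.4, 73.2 and 58.7 TPM against 127, 110 and 101 TPM at 76 h. The −Fe+P samples were thus below the control at 39 h and above it at 76 h without overlap at either time, and the 39 h difference of −0.42 had an adjusted p of 0.227.

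Levels of neighbouring genes were compared across samples. Over the 27 samples the median r of log2 values was 0.73 for the 78 pairs of neighbours on the same strand, 0.49 for the 32 pairs on opposite strands and 0.36 for all 6105 pairs. The pair psbD and psbC, for the D2 and CP43 proteins of photosystem II, had r = 0.94, atpI and rps2 0.97, and atpB and atpE 0.71. The gene atpI was highest in −Fe−P 39 h replicate 1, which stood apart, at 1723 TPM. It also followed psbB (r = 0.96), rps12 (ATCG00905, 0.94) and trnL (ATCG00400, 0.92), which are not its neighbours. No r was computed without that library. Some genes that are not neighbours of the ribosomal RNA cluster also followed it, with r = 0.94 between rbcL and rrn23S, and psbA followed rbcL with r = 0.83. These values are descriptions over samples that share media, times and, for the rows of 1 library, the same RNA selection.

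The nuclear partners of the plastid genes were compared with them through 2 lists. Of 31 nuclear subunits of the same complexes, 15, 25 and 30 were lower at the adjusted p in −Fe+P at the 3 times, with medians of −0.32, −0.69 and −0.86 on the log2 scale and 13 at least 2-fold lower at 76 h. Of all tested genes 2.45%, 3.57% and 9.43% were lower there, against 48.4%, 80.6% and 96.8% of the list. Under −Fe−P 12, 22 and 23 of them were lower, with medians of −0.25, −0.43 and −0.52 and 2 higher at 76 h, beside 5.18%, 11.6% and 21.9% of all genes that were lower at these times. Comparing −Fe−P with −Fe+P, 0, 16 and 24 of the 31 were higher, beside 2.87%, 9.77% and 22.5% of all genes. At 76 h in both media the nuclear subunits were mostly lower than in the control, while the plastid subunits of photosystem I, photosystem II, cytochrome b6f, the ATP synthase and NDH had group medians above 0. Under median-of-ratios scaling the nuclear medians at 76 h were −0.98 and −0.65. The medians of these plastid groups were lower under it too. They ran from 0.02 for photosystem II to 0.51 for photosystem I in −Fe+P, and from 0.21 to 0.77 for the same groups under −Fe−P.

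The second list holds 20 nuclear factors of plastid transcription, the sigma factors, the phage-type polymerases and the proteins bound to the bacterial-type polymerase. In −Fe+P 3, 13 and 13 of them were higher at the adjusted p at the successive times and 2, 1 and 2 lower, with medians of 0.15, 0.35 and 0.41, and 3.43%, 28.5% and 29.5% of all genes were higher. Under −Fe−P 1, 2 and 3 were higher and 2, 7 and 12 lower, with medians of −0.02, −0.12 and −0.38, beside the 5.18%, 11.6% and 21.9% of all genes that were lower. Comparing −Fe−P with −Fe+P at 76 h, 16 of the 20 were lower (80%, against 28.8% of all genes), 6 of them by at least 2-fold, with a median of −0.68, where the members had a median of −0.19.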

How the data were processed

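Polyadenylated RNA was captured on oligo-dT beads, made into libraries with the KAPA RNA HyperPrep kit and sequenced on a NextSeq instrument. The authors aligned reads to TAIR10 with HISAT2, used DESeq2, and deposited TPM values, which are analysed here. Sample groups came from the sample labels. Reads per sample (25.6 to 56.5 megareads, median 44.2) were inferred from the TPM steps, which gave whole reads within 0.02, and limit low rows.

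Gene names came from matching counted lengths to the gene order of the RefSeq plastid genome, with 122 rows of exact length, 5 placed by position with another length, 3 parts of rps12 and 3 others. Genes averaging 1 TPM or more (18910) were fitted as log2(TPM + 0.5) in 1 limma 3.58.1 model (R 4.3.3) over 27 samples, with group means as coefficients, a trended eBayes and no block. Log2 differences are on that scale and understate the change of low rows. Benjamini-Hochberg adjustment ran within each comparison, and a call needed an adjusted p under 0.05 and a 2-fold change. The test was checked on simulated data.

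Named are the 2 highest members of each functional group, psbA, rbcL, accD, clpP1, the polymerase genes, and the 2 highest and 2 lowest called members per comparison without overlap. Other names were chosen after their values were seen. The members, lists and tests were chosen with earlier results of these data known. Alternatives were pseudocounts of 0.1 and 1, no filter or a mean of 5 TPM, scaling to nuclear genes or by median of ratios, a replicate block, no trend, fits of 6 samples, no fold limit, and leaving out each replicate. Counts at the adjusted p alone without a library that stood apart were added after seeing the data. Replicate numbers were checked for pairing and showed no clear one, which groups of 3 samples cannot settle. Some members are not reported here.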

Additional observations from a re-analysis of the deposited data

Results flagged for a closer look

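The response of 7 rows to the media differed between 39 and 76 h by a direct test, a contrast in the limma fit with Benjamini-Hochberg adjustment over all genes. For −Fe+P against +Fe+P, the change was 1.279 on the log2 scale for trnF (adjusted p = 0.00243) and 1.116 for petD (adjusted p = 0.0145). For −Fe−P against +Fe+P it was 1.144 for trnF (adjusted p = 0.00135). The change in −Fe−P against −Fe+P was −1.533 and −1.532 for the copies of trnA-UGC (adjusted p = 0.00128 and 0.00131) and −1.233 and −1.236 for the copies of trnI-GAU (adjusted p = 0.00431 and 0.00332). The copies of a repeat gene share their reads and count as 1 observation. The changes against +Fe+P include those of the control, in which trnF fell by 0.75 between these times. Groups of 3 samples were too small for a search for single outlying samples.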

How the results depend on the processing

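No called member turned its direction under an alternative. Uncalled medians near 0 did: under median-of-ratios scaling the member median for −Fe+P at 52 h went from 0.10 to −0.07, and those of polymerase genes and ribosomal RNA for −Fe−P at 76 h to −0.08 and −0.09, and without −Fe−P 39 h replicate 1 the member median for −Fe−P at 39 h went from 0.07 to −0.03. The counts of called members changed as follows. For −Fe+P against +Fe+P at 52 h, 1 call became 0 with a pseudocount of 1, no filter, a minimum mean of 5 TPM or median-of-ratios scaling. For −Fe−P against +Fe+P at 39 h, 2 calls became 1 with no filter and 0 with a fit of 6 samples. From 39 to 76 h, fits of 6 samples gave 3 calls in +Fe+P (against 0) and 5 in −Fe−P (against 11), and no filter or median-of-ratios scaling gave 0 in −Fe+P (against 1). Without the 2-fold limit the counts were 11 and 41 for −Fe+P at 52 and 76 h, 9, 15 and 39 for −Fe−P by time, 7 and 22 for −Fe−P against −Fe+P at 52 and 76 h, and 22, 7 and 46 over time in +Fe+P, −Fe+P and −Fe−P.

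Leaving out 1 replicate gave 0 to 0, 0 to 3 and 2 to 8 calls for −Fe+P against +Fe+P by time (2 in the last on leaving out −Fe+P 76 h replicate 1), 0 to 8, 0 to 3 and 1 to 7 for −Fe−P against +Fe+P, 0 to 2, 0 to 3 and 6 to 14 for −Fe−P against −Fe+P (14 without −Fe−P 76 h replicate 2), and 0 to 1, 0 to 0 and 2 to 19 over time in +Fe+P, −Fe+P and −Fe−P (2 without −Fe−P 39 h replicate 1, 19 without −Fe−P 39 h replicate 3). The cause was not tested. Fits that leave 2 samples in a group assume that they vary like the others.

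A replicate block changed 1 of 12 counts, −Fe+P against +Fe+P at 76 h, from 6 to 5, where trnD was lost. Deviations of same-numbered samples correlated at −0.415 to 0.365 over 27 pairs (median 0.05, 8 above 0.1), against a median of −0.02 over 54 other pairs. Deviations from a mean of 3 samples are tied to each other, so the other pairs are no independent baseline. The check therefore cannot settle whether same-numbered samples shared plates or batches. Rows of few reads, such as trnQ, are limited by depth.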

Other observations

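The 75 mitochondrion-encoded rows with a mean of at least 1 TPM, which pass the same bead selection, were at 76 h higher at the adjusted p in 30 cases in −Fe+P and 26 under −Fe−P against +Fe+P, with 0 lower in either (40% and 34.7% higher, against 29.5% and 33.7% of all tested genes) and median log2 differences of 0.60 and 0.52. Comparing −Fe−P with −Fe+P, 2 were higher and 3 lower, with a median of −0.09. Under median-of-ratios scaling the first 2 medians were 0.47 and 0.41. The plastid members had medians of 0.45 and 0.28 in the same comparisons.

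The composition of plastid coding TPM at 76 h differed by a few percentage points between media. The small ribosomal subunit held 12.9% ± 0.822 (SD, n = 3) in the control, 16.1% ± 1.16 in −Fe+P and 13.1% ± 0.258 under −Fe−P, with −Fe+P samples from 14.8% up and all others at most 13.8%. The ATP synthase held 26.2% ± 0.22, 23.2% ± 2.09 and 28.1% ± 1.54, with −Fe−P samples from 26.8% up and all others at most 26.4%. Photosystem I held 9.09% ± 0.198, 8.62% ± 1.26 and 8.81% ± 2.31, with overlap, since psaJ makes up most of that share. These are descriptions with no test.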
